A study of Homo sapiens with 96 samples.

Results

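The exon events of A549 cells treated with MS023 for 2 days were compared with those of cells grown in DMSO for 4 days. A549 is an established epithelial line from a human lung adenocarcinoma. MS023 is a small molecule that inhibits type I protein arginine methyltransferases (PRMTs). Every event of the following types that rMATS listed for this pair of groups was taken: exons that can be skipped (SE), pairs of exons of which an mRNA holds only one or the other (MXE), and exons with alternative acceptor (A3SS) or donor (A5SS) sites. They numbered 127960 of the 1058940 events of all types in the 8 tables of the series, of which 92775 were SE, 22553 MXE, 7584 A3SS, and 5048 A5SS. Of 96 samples in the series, 6 poly(A)-RNA libraries entered the comparison, 3 treated with 1 µM MS023 for 2 days and 3 with 0.01% DMSO for 4 days. Another 4 groups of 3 libraries each were used beside them, namely 1 µM GSK591, an inhibitor of PRMT5, for 2 days, 1 µM MS023 for 4 and for 7 days, and 0.01% DMSO for 7 days. All groups are of the same single cell line, with no genetic change stated in the labels. The libraries of a group are called a, b, and c in the order in which the deposited tables list them. Nothing in the labels says that they came from separate cultures, so the spread between libraries that enters the p-values may be technical.

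Most human genes with several exons produce more than one mRNA because the spliceosome can include or skip an exon, or cut at a neighbouring splice site. Serine- and arginine-rich (SR) proteins and heterogeneous nuclear ribonucleoproteins (hnRNPs) bind the pre-mRNA and steer these choices. Many hnRNPs and other RNA-binding proteins carry arginine- and glycine-rich (RGG) stretches on which type I PRMTs, mainly PRMT1, place asymmetric dimethylarginine, whereas PRMT5 places the symmetric form.

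Each event was described by Ψ, the share of transcripts that carry the inclusion form, after division of the read counts by the effective lengths of both forms. For SE the inclusion form holds the exon, for A3SS and A5SS it is the longer form of the exon, and for MXE it is the form with the exon nearer the 5′ end of the transcript. ΔΨ is the mean Ψ of the MS023 libraries minus that of the DMSO libraries, so a positive value means more inclusion with MS023. A called event is one with an adjusted p under 0.05 in a quasi-binomial F test of the counts of both forms, adjusted within event type by the Benjamini-Hochberg method. The spread used in that test was drawn towards that of other events, so the libraries of an event set it only in part. An event was tested when each of the 6 libraries held at least 10 reads of it and each form had been read at least once.

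The 7 short coding exons below are shown first, because their length and their splice sites can be read directly. They are given from 5′ to 3′ on the transcribed strand of GRCh37 (hg19), with the exon in capitals and 15 bases of intron in lower case on either side. Inclusion of the first 4 was higher with MS023: DNM2 (chr19:10919230-10919271, plus strand), SRRM1 (chr1:24989659-24989730, plus strand), MICAL3 (chr22:18286562-18286642, minus strand), and MAP3K7 (chr6:91254256-91254366, minus strand). Inclusion was lower for FLNA (chrX:153585604-153585657, minus strand) and EXOC7 (chr17:74087209-74087331, minus strand). The exon of PTBP1 (chr19:805477-805584, plus strand) was called, but in opposite directions with DMSO of 4 and of 7 days as the control.
DNM2: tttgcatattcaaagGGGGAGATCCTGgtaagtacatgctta
SRRM1: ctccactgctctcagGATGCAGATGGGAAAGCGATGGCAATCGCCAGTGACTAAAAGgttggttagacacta
MICAL3: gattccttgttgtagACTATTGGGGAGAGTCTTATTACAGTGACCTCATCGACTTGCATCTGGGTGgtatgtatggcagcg
MAP3K7: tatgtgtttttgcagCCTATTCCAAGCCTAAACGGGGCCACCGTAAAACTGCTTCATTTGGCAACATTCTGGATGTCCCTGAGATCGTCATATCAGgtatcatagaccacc
FLNA: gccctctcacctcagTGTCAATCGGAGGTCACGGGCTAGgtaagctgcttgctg
PTBP1: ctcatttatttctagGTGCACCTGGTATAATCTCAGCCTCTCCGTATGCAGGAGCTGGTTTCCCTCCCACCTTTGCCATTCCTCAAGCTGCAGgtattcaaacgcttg
EXOC7: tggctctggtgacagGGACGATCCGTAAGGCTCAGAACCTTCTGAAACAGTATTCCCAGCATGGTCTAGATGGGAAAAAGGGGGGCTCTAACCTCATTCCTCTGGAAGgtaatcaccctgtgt
Each exon lies between an AG and a GT and has a length that is a multiple of 3, from the 4 codons of DNM2 and the 8 of FLNA to the 31 of EXOC7. These 7 were picked and do not stand for all called exons. Of those, multiples of 3 made up 49.8% of the higher and 50.3% of the lower. Against the donor consensus CAGGTAAGT, the DNM2 exon matched at 8 of 9 positions, the FLNA exon at 7, and the other five at 6.

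Inclusion was lower more often than higher after 2 days of MS023 when DMSO of 4 days was the control. With DMSO of 7 days as the control this did not hold for SE, with 1524 higher and 1389 lower calls. Of 110113 tested events of the 4 types, 1628 (1.48%) were called, 517 with higher and 1111 with lower Ψ. They fell in 984 of the 10870 genes with a tested event, and 185 of these genes had called events of at least 2 types. SE reads per library ranged from 53446610 to 65116485, and pairs of libraries of a group differed by 2.13 to 3.83 times the sampling noise (chi-square per degree of freedom). As markers of the line, the epithelial gene KRT8 had 16 listed events with up to 62300 reads per library, CDH1 had 5 and EPCAM 2, whereas PTPRC, PECAM1, COL1A1, and COL1A2, markers of leukocytes, endothelium, and fibroblasts, had none. KRT18 and KRT19 had none either, and the tables hold no gene expression with which to go further.

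By type, 1179 of 78541 tested SE were called (1.5%), 311 higher (0.396%) and 868 lower (1.11%). They covered 1113 different exons in 824 genes. Of the other types, 243 of 21121 MXE (1.15%), 97 of 6310 A3SS (1.54%), and 109 of 4141 A5SS (2.63%) were called. A3SS and A5SS moved mostly towards the shorter form of the exon, with 71 A3SS (1.13%) and 78 A5SS (1.88%) lower against 26 (0.412%) and 31 (0.749%) higher. MXE moved more often towards the exon nearer the 5′ end, with 149 higher (0.705%) and 94 lower (0.445%), but the direction turned when DMSO of 7 days was the control, with 935 higher and 2261 lower. Retained introns, given only for scale, were called in 212 of 3947 cases (5.37%), 54 higher (1.37%) and 158 lower (4%). The filter left out 14234 of the listed SE, 1432 MXE, 1274 A3SS, and 907 A5SS, to which nothing below applies.

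**Figure D1:**
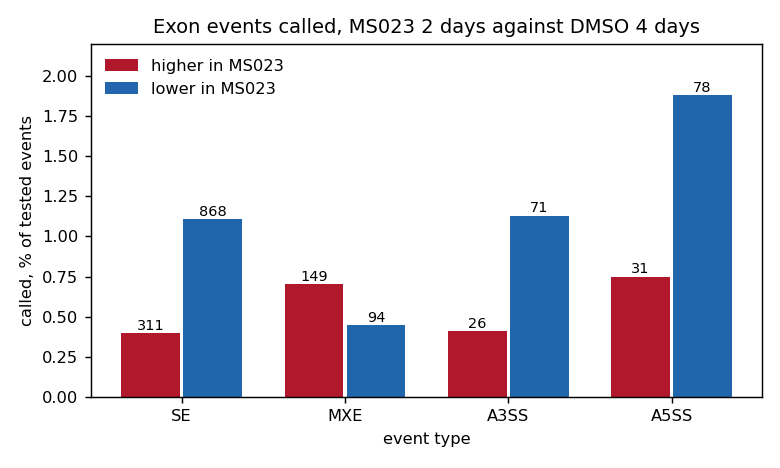
Share of tested events called in each event type (vertical axis, percent of tested events), split into events with higher (red) and lower (blue) inclusion in MS023 at 2 days; the number over each bar is the count of events. The lower bars exceed the higher bars for SE, A3SS, and A5SS, and the reverse holds for MXE. With DMSO at 7 days as the control, which is not drawn, MXE had 935 higher and 2261 lower calls, and SE 1524 higher and 1389 lower.

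Most of the called changes were moderate in size. The median absolute ΔΨ was 0.09 for called SE, 0.082 for MXE, 0.0922 for A3SS, and 0.0793 for A5SS. Of the called SE, 535 changed by at least 0.1 and 200 by at least 0.2. The 3 libraries of both groups did not overlap in 96.9% of the called SE, compared with 10.2% of all tested SE. The median standard deviation over 3 libraries was 0.0138 in DMSO and 0.0181 in MS023 among the called SE. The median ΔΨ of all tested SE was -0.00109 and the mean -0.00475, each with a two-sided exact permutation p of 0.1, the smallest that 3 libraries against 3 allow. The median absolute ΔΨ of all tested SE was 0.00731, beside the called SE, which were chosen by this same contrast.

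The calls depended on the test, on single libraries, and on the control. In place of the quasi-binomial test, a linear model of the log2 odds of inclusion (limma) called 1 SE, 28 MXE, 0 A3SS, and 4 A5SS. Of the SE, 6403 had an unadjusted p under 0.05 in limma (8.15%). Of the 1179 called SE, 440 were called whichever library was left out, and leaving out MS023 library c lowered the count to 612. With the 7-day DMSO libraries as control in place of the 4-day ones, 1158 of the 1179 could be tested, and 769 were called in the same direction, 240 of the 311 higher and 529 of the 868 lower. That control gave 2913 called SE of 55014 (5.3%), with 1524 higher and 1389 lower, so that lower exons were not in excess against that control. Between the DMSO libraries of 7 and 4 days, 896 of 54002 SE were called (1.66%), 138 higher (0.256%) and 758 lower (1.4%) at 7 days. Of the other types, 63 of the 95 called A3SS that could be tested (4.52% of all tested called with that control), 68 of 107 A5SS (8.2%), 96 of 158 MXE (28.1%), and 127 of 212 RI (17.6%) were called in the same direction against DMSO at 7 days. For MXE these were 47 of the 149 higher and 49 of the 94 lower, and the rest of the 243 beyond the 158 could not be tested. Lower calls stayed in excess for A3SS (107 higher and 142 lower) and A5SS (101 and 190) with that control. No DMSO libraries of 2 days were compared here, so treatment and time in culture cannot be told apart in the 2-day comparison.

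Among the skipped exons with at least 50 reads in every library, the largest falls were in PLEC, EP400, SNAP25, ANKS6, ANKS3, ACSF3, and NPIPA1, with ΔΨ from -0.538 to -0.362. PLEC encodes plectin, which links intermediate filaments to other parts of the cytoskeleton. Its 3381-nt coding exon (chr8:144996672-145000052) had a Ψ of 0.711, 0.706, and 0.71 in DMSO and 0.294, 0.305, and 0.276 in MS023. ΔΨ was -0.417 ± 0.00852 (SE), with a quasi-binomial adjusted p of 2.07e-215 and 7535 to 23378 reads per library. All MS023 libraries lay far below all DMSO libraries, and nearly all reads of such a long exon come from within it.

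EP400, the ATPase of a chromatin-remodelling complex, had a 236-nt coding exon (chr12:132547011-132547246) with a Ψ of 0.885, 0.85, and 0.91 in DMSO and 0.413, 0.53, and 0.516 in MS023. ΔΨ was -0.395 ± 0.0408 (quasi-binomial adjusted p = 2.28e-19). The lowest DMSO library stood well above the highest MS023 library. SNAP25, a SNARE protein of membrane fusion, had a 145-nt exon (chr20:10279916-10280060) with a Ψ of 0.827, 0.774, and 0.771 in DMSO and 0.425, 0.462, and 0.388 in MS023. ΔΨ was -0.366 ± 0.0281 (quasi-binomial adjusted p = 6.59e-07), again without overlap.

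ANKS6 and ANKS3 encode ankyrin-repeat proteins that bind each other, and exons of both fell. In ANKS6, the 503-nt exon (chr9:101552386-101552888) went from a Ψ of 0.836, 0.91, and 0.826 to 0.377, 0.531, and 0.41. Its ΔΨ was -0.418 ± 0.0538 (quasi-binomial adjusted p = 3.39e-22). In ANKS3, the 199-nt exon (chr16:4776980-4777178) went from 0.813, 0.753, and 0.858 to 0.54, 0.437, and 0.362. The groups did not overlap for either exon, and the ΔΨ of the ANKS3 exon was -0.362 ± 0.06 (quasi-binomial adjusted p = 6.55e-05). ACSF3, a mitochondrial enzyme that makes malonyl-CoA, had a 686-nt non-coding exon (chr16:89167070-89167755) with a Ψ of 0.833, 0.865, and 0.785 in DMSO and 0.459, 0.41, and 0.361 in MS023. Its ΔΨ was -0.417 ± 0.0364 (quasi-binomial adjusted p = 1.08e-09), and all MS023 values lay under all DMSO values.

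The 1007-nt exon of NPIPA1 gave the largest fall of the 7, but the gene belongs to a family of near-identical copies between which reads may be split, so its value is uncertain. Its Ψ spread from 0.504 to 1.0 over the DMSO libraries and from 0.184 to 0.287 over the MS023 libraries. The groups did not overlap (ΔΨ = -0.538 ± 0.147, quasi-binomial adjusted p = 5.36e-05), although the spread within DMSO was wide. All 7 of these falls were called whichever library was left out.

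The 7 largest rises among SE with at least 50 reads in every library rested on 50 to 203 reads per library, and ΔΨ ran from 0.271 to 0.353. ANXA2 encodes a calcium-dependent membrane-binding annexin. Its 148-nt exon outside the coding sequence (chr15:60688479-60688626) had a Ψ of 0.326, 0.358, and 0.284 in DMSO and 0.593, 0.685, and 0.751 in MS023. ΔΨ was 0.353 ± 0.0505 (quasi-binomial adjusted p = 6.73e-08), with no overlap and a call whichever library was left out. Another ANXA2 event with the same boundary (chr15:60688350-60688626) changed only from a mean Ψ of 0.0187 to 0.0292. It had 11417 to 12760 reads per library. Called SE events of ANXA2 moved in both directions, so the larger value describes its own event and not ANXA2 transcripts as a whole. CBWD5, a member of a duplicated family and therefore uncertain, went from 0.215, 0.121, and 0.192 to 0.496, 0.606, and 0.418 for an 88-nt exon. Its ΔΨ was 0.331 ± 0.0616 (quasi-binomial adjusted p = 6.1e-06), and its call also held without each library.

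The other five rises lost their call without 1 or more libraries. P2RX5 is an ATP-gated ion channel, and its 72-nt coding exon (chr17:3594250-3594321) rose from a Ψ of 0.243, 0.205, and 0.224 to 0.462, 0.496, and 0.61. ΔΨ was 0.298 ± 0.046 (quasi-binomial adjusted p = 0.00226), with no overlap, and the call was lost without MS023 library c (adjusted p = 0.124). FIGNL1, an ATPase of homologous recombination, had a 179-nt exon with a Ψ of 0.359, 0.577, and 0.461 in DMSO and 0.863, 0.841, and 0.732 in MS023. Its ΔΨ was 0.346 ± 0.0749 (quasi-binomial adjusted p = 0.00226), lost without DMSO library a (0.0525), and the groups stood apart. Against DMSO at 7 days the FIGNL1 call was also lost (ΔΨ = 0.118, adjusted p = 0.324).

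The 51-nt coding exon of MICAL3, an actin- and vesicle-associated monooxygenase whose sequence is given above, had a Ψ of 0.343, 0.367, and 0.262 in DMSO and 0.699, 0.62, and 0.467 in MS023. ΔΨ was 0.271 ± 0.0752 (quasi-binomial adjusted p = 0.00604). MS023 library c was the lowest of its group but still above every DMSO library. The call was lost without DMSO library c or MS023 library a or b, with adjusted p values of up to 0.203. The 1072-nt exon of IQCD went from 0.54, 0.423, and 0.823 to 0.952, 0.944, and 0.95, and the 178-nt exon of SLC35G1, a solute carrier, from 0.421, 0.584, and 0.41 to 0.695, 0.809, and 0.795. DMSO library c of IQCD stood well above the other two, yet neither exon showed overlap between the groups. ΔΨ was 0.353 ± 0.119 for IQCD (quasi-binomial adjusted p = 0.00655) and 0.295 ± 0.0667 for SLC35G1 (0.0397). The IQCD call was lost without DMSO library b or MS023 library a or c (up to 0.174), and the SLC35G1 call on leaving out any library other than DMSO b (up to 0.259).

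**Figure D2:**
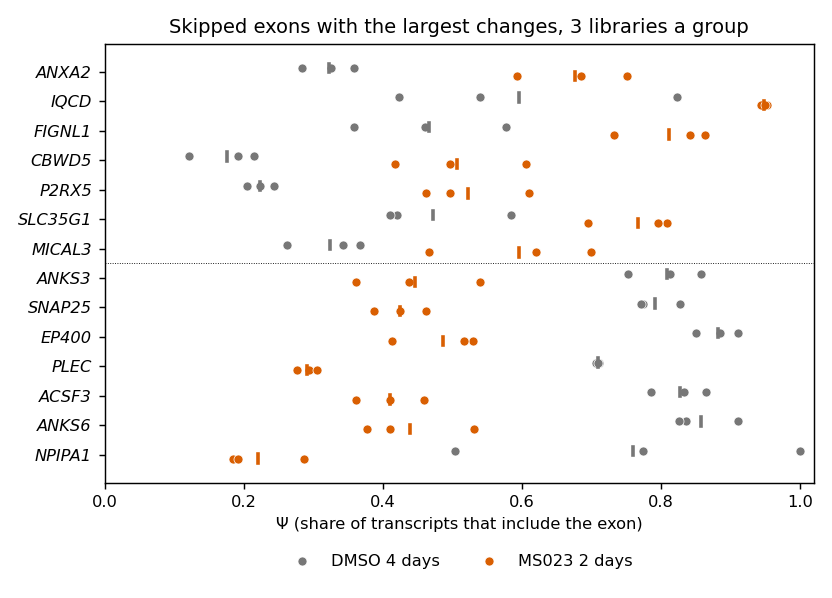
Ψ (horizontal axis, share of transcripts that include the exon) of the 7 skipped exons with the largest rise (above the dotted line) and the 7 with the largest fall. Only exons with at least 50 reads in every library were ranked. Dots are libraries and vertical ticks are group means for DMSO at 4 days (grey) and MS023 at 2 days (orange). No exon has overlapping groups, and the PLEC exon has the tightest libraries, at 0.706 to 0.711 in DMSO and 0.276 to 0.305 in MS023.

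Among well-covered MXE, the largest changes were rises in SVIL and ERICH1 and falls in IQSEC2 and CCDC25. SVIL encodes supervillin, which ties actin to the membrane. Its 81-nt exon (chr10:29824918-29824998) had a Ψ of 0.278, 0.562, and 0.373 in DMSO and 0.776, 0.701, and 0.758 in MS023. ΔΨ was 0.34 ± 0.0866 (quasi-binomial adjusted p = 0.0293), without overlap, but the call was lost on leaving out any library other than DMSO b (up to 0.251). ERICH1, a glutamate-rich protein, went from 0.494, 0.41, and 0.406 to 0.706, 0.682, and 0.682. Its ΔΨ of 0.253 ± 0.0298 (quasi-binomial adjusted p = 3.52e-06) was called without each library.

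Of the 2 largest falls among MXE, IQSEC2, an exchange factor for ARF GTPases, had a Ψ of 0.418, 0.473, and 0.512 in DMSO and 0.109, 0.198, and 0.279 in MS023 for a 96-nt exon. ΔΨ was -0.272 ± 0.0561 (quasi-binomial adjusted p = 4.03e-05), and the call held without each library. CCDC25 went from 0.625, 0.538, and 0.646 to 0.378, 0.395, and 0.3 (ΔΨ = -0.245 ± 0.0443, quasi-binomial adjusted p = 0.00773). The groups were apart in both genes, and the CCDC25 call was lost without DMSO library a or c or MS023 library a or c (up to 0.108).

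Among well-covered A5SS, DDX5 had the largest fall. DDX5 is a DEAD-box RNA helicase that takes part in splicing and transcription. The long form of its exon (chr17:62496667-62498187, longer by 1461 nt) is annotated only as part of a retained-intron transcript and not as coding. It may therefore be read as an intron-containing form. Its Ψ was 0.956, 0.95, and 0.954 in DMSO and 0.647, 0.661, and 0.645 in MS023. ΔΨ was -0.303 ± 0.00535 (quasi-binomial adjusted p = 1.1e-96), on 7191 to 11005 reads per library. The distance between the groups was many times the spread within either of them.

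CLEC16A, a regulator of mitophagy, and SNHG15, a host gene of small nucleolar RNAs, also moved to the shorter form. For CLEC16A, where the sites lie 48 nt apart, Ψ was 0.544, 0.477, and 0.585 in DMSO and 0.263, 0.388, and 0.186 in MS023, with a ΔΨ of -0.256 ± 0.0669 (quasi-binomial adjusted p = 0.00162). For SNHG15, Ψ was 0.71, 0.949, and 0.632 in DMSO and 0.431, 0.524, and 0.552 in MS023, with a ΔΨ of -0.261 ± 0.102 (quasi-binomial adjusted p = 0.0262). Neither gene showed overlap. The CLEC16A call was lost without MS023 library a (0.0606) and the SNHG15 call without DMSO library b or MS023 library a or b (up to 0.428).

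Of the A5SS, 3 moved to the longer form by 0.14 to 0.158. ENSA, an inhibitor of the mitotic phosphatase PP2A, had a Ψ of 0.338, 0.295, and 0.273 in DMSO and 0.425, 0.466, and 0.49 in MS023 (ΔΨ = 0.158 ± 0.0269, quasi-binomial adjusted p = 0.00524). CLASRP, an SR-like protein that binds a splicing kinase, uses donor sites only 4 nt apart, so its forms differ in reading frame. Its Ψ was 0.406, 0.42, and 0.451 in DMSO and 0.596, 0.511, and 0.635 in MS023 (ΔΨ = 0.155 ± 0.0387, quasi-binomial adjusted p = 0.0158). SGOL1, shugoshin, which protects centromeric cohesion, went from 0.603, 0.634, and 0.482 to 0.768, 0.678, and 0.692 (ΔΨ = 0.14 ± 0.0542, quasi-binomial adjusted p = 0.0369). The groups were apart in all 3 genes, but each call depended on single libraries: ENSA on MS023 c (0.0624), CLASRP on DMSO a and b and MS023 a and c (up to 0.216), and SGOL1 on DMSO c and all 3 of MS023 (up to 0.398). Against DMSO at 7 days the ΔΨ of SGOL1 was 0.0648 (adjusted p = 0.429).

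Among well-covered A3SS, the largest change was a fall in FN1, which encodes fibronectin of the extracellular matrix. The long form of its exon (chr2:216236632-216237023), 285 nt longer than the short one and in frame, had a Ψ of 0.839, 0.764, and 0.796 in DMSO and 0.514, 0.468, and 0.454 in MS023. ΔΨ was -0.321 ± 0.0282 (quasi-binomial adjusted p = 2.82e-17), with no overlap and a call whichever library was left out. SIK3, a salt-inducible kinase, moved the other way for sites 180 nt apart, from 0.642, 0.686, and 0.652 to 0.884, 0.884, and 0.882. Its ΔΨ was 0.223 ± 0.0132 (quasi-binomial adjusted p = 0.00394), and this call too held without each library.

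The remaining 4 of the 6 largest A3SS were less firm. NR1H3, the oxysterol receptor LXRα, went from 0.676, 0.797, and 0.836 to 0.52, 0.428, and 0.495 (ΔΨ = -0.289 ± 0.0555, quasi-binomial adjusted p = 0.00306), lost without DMSO c or MS023 b (up to 0.0648). JTB went from 0.633, 0.798, and 0.898 to 0.555, 0.514, and 0.533 (-0.242 ± 0.0782, quasi-binomial adjusted p = 0.0153), lost on leaving out any library other than DMSO a (up to 0.221). ZFP90, a zinc-finger protein, rose from 0.207, 0.172, and 0.111 to 0.315, 0.399, and 0.453 (0.225 ± 0.0488, quasi-binomial adjusted p = 0.00945), lost without DMSO c or MS023 b or c (up to 0.11). These 3 showed no overlap. HERC2P2 is a pseudogene with a near-identical parent, and its libraries overlapped, at 0.204, 0.415, and 0.208 in DMSO and 0.568, 0.307, and 0.573 in MS023, although the count model called it (quasi-binomial adjusted p = 3.94e-10). It is therefore not read as a change beyond the spread.

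Exons that rose were short more often than exons that fell. With 1 event per exon, 265 called exons were higher and 720 lower, beside 56148 tested and not called. Exons of up to 51 nt made up 20.4% of the higher, 3.06% of the lower, and 6.19% of the exons not called. Median lengths were 96, 144, and 119 nt. Of the 3554 tested exons of up to 51 nt, 54 were higher (1.52%) and 22 lower (0.619%), whereas of the 16181 exons of 151 to 499 nt, 52 were higher (0.321%) and 289 lower (1.79%). Very long exons of at least 500 nt, such as that of PLEC, were called often in both directions, with 23 higher (1.63%) and 43 lower (3.05%) of 1408. Median reads per library rose with length, from 175 in the shortest class to 596 in the longest, and the part of read depth in these shares was not tested.

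At 7 days, in libraries and controls that the 2-day comparison does not use, short exons again had more higher than lower calls, and exons of 151 to 499 nt the reverse. There 145 of 2769 exons of up to 51 nt were higher (5.24%) and 23 lower (0.831%), against 136 higher (1.16%) and 282 lower (2.41%) of 11686 exons of 151 to 499 nt. The class with the largest share of higher calls was not the same, being at least 500 nt at 2 days (1.63%) and up to 51 nt at 7 days, where exons of at least 500 nt had 2.63%. With the 7-day DMSO libraries as control for MS023 at 2 days, 182 of 2748 short exons were higher (6.62%) and 41 lower (1.49%), and exons of 151 to 499 nt had 283 higher (2.47%) and 406 lower (3.54%). Under that control the longest class turned to more higher (69, 6.9%) than lower calls (48, 4.8%), and exons of 52 to 150 nt had 659 higher and 662 lower. These shares are descriptions of exons, which are not independent replicates, and carry no test.

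**Figure D3:**
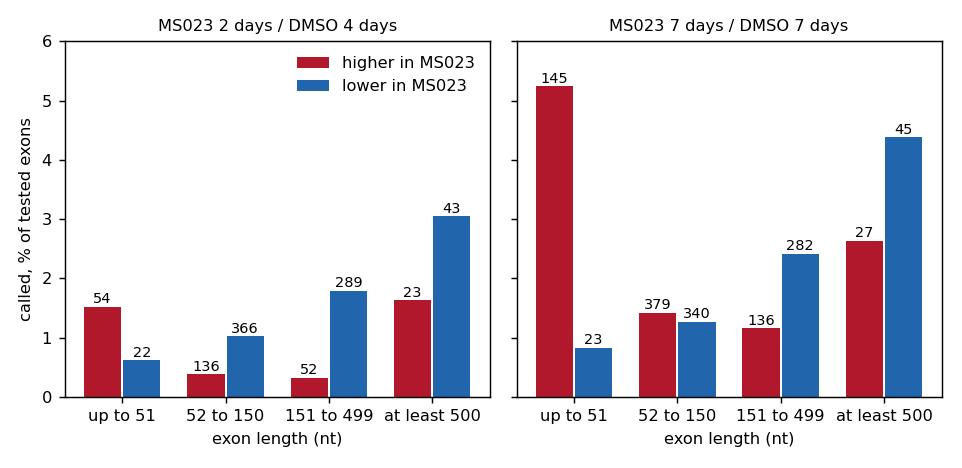
Share of tested skipped exons called (vertical axis, percent) by exon length in nt, with higher (red) and lower (blue) inclusion in MS023, at 2 days against DMSO at 4 days (left) and at 7 days against DMSO at 7 days (right); numbers over the bars are counts of exons. Exons of up to 51 nt are the class in which higher calls most exceed lower ones in both panels, 54 to 22 and 145 to 23.

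Some other features were shared by called exons of both directions. Both were multiples of 3 more often (49.8% of the higher, 50.3% of the lower) than exons not called (41.0%). Both had shorter introns, with a median upstream intron of 1140 nt for the higher, 1510 nt for the lower, and 2060 nt for exons not called, and downstream introns of 1430, 1210, and 1880 nt. A narrower set held exons with a mean Ψ of 0.1 to 0.9 and at least 16 reads of the rarer form over the 6 libraries. Its upstream medians were 1090, 1950, and 2080 nt, so that the lower exons were then close to those not called. Its downstream medians were 1410, 1450, and 2070 nt. The rarer form had a median of 532, 314, and 106 reads in that set, so depth was not matched. Mean matches to the donor consensus CAGGTAAGT were 6.03, 6.07, and 6.29 of 9. The exonic hexamer GAAGAA, read on the transcribed strand, was in 9.06% of the higher, 13.2% of the lower, and 13.2% of the exons not called. The hexamer TGCATG occurred in the 250 nt after 10.2%, 6.67%, and 7.37% of them, and GGGG in 52.5%, 55.4%, and 52.5%. Coding sequence held 57.0% of the higher, 67.1% of the lower, and 77.8% of the exons not called. In the narrower set, these shares were 56.0%, 62.0%, and 57.1%. The large gap to the exons not called was not seen there, between groups that still differed in depth. In that set, multiples of 3 made up 51.2%, 53.4%, and 46.3%, and GAAGAA was in 8.93%, 14.3%, and 10.3%.

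These sets also differed in level and depth. Median Ψ in DMSO was 0.32 for exons that rose, 0.925 for exons that fell, and 0.992 for exons not called, and the rarer form had a median of 364, 196, and 7 reads. In the narrower set given above, with a mean Ψ of 0.1 to 0.9, up to 51 nt was the length of 20.8% of the higher. It was that of 3.71% of the lower and of 9.84% of the 5739 not called. Of the 720 exons that fell, 55.6% had a Ψ over 0.9 in DMSO, beside 77.2% of all tested exons. In that class, 400 of 44082 exons were lower (0.907%) and 40 higher (0.0907%). A larger share fell at a Ψ of 0.5 to 0.9, where 168 of 3949 were lower (4.25%) and 70 higher (1.77%). In the range of 0.1 to 0.5, 90 were higher (3.83%) and 96 lower (4.08%) of 2351. A fall has more room than a rise at a Ψ near 1, and the part of this in the excess of falls against DMSO at 4 days was not tested.

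Acceptor sites that lie very close together were rarely called. None of the 97 called A3SS had sites 3 nt apart, the spacing of tandem NAG acceptors, compared with 707 of the 6213 not called (11.4%). The median distance was 328 nt for A3SS that rose, 138 nt for those that fell, and 49 nt for those not called. For A5SS it was 138, 216, and 80 nt, and sites 4 nt apart made up 1 of the 31 higher (3.23%), 1 of the 78 lower (1.28%), and 3.79% of those not called. Longer segments take more reads from within, so that distance and depth move together here.

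Genes for splicing proteins were read by lists of their roles, with all 4 event types in 1 count, against 1.48% of all tested events called. SR proteins had 5 of 70 tested events called (7.14%, 3 higher and 2 lower), hnRNP and PTB proteins 16 of 438 (3.65%, 5 and 11), SR-like and exon junction proteins 7 of 296 (2.36%, 1 and 6), and core spliceosome proteins 15 of 563 (2.66%, 4 and 11). Other splicing regulators and kinases had 7 of 484 (1.45%, 2 and 5), at the level of all events. RGG-rich proteins known as arginine-methylated had 21 of 756 (2.78%, 6 and 15), mRNA export factors 6 of 323 (1.86%, 1 and 5), and PRMTs with their cofactors 5 of 170 (2.94%, 4 and 1). Events of a gene share reads and exons, so these shares are given without a test. The median ΔΨ of the lists lay between -0.00209 and 0.000149, beside -0.00098 for all tested events.

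Among SR proteins and their relatives, an exon tied to mRNA decay and a short coding exon rose while an exon of nearly full inclusion fell slightly. SRSF6 has an exon of 268 nt (chr20:42087793-42088060) annotated in a transcript subject to nonsense-mediated decay. Its Ψ was 0.101, 0.104, and 0.116 in DMSO and 0.188, 0.158, and 0.158 in MS023 (ΔΨ = 0.0608 ± 0.0108, quasi-binomial adjusted p = 1.26e-06), without overlap, but against DMSO at 7 days ΔΨ was 0.0234 (adjusted p = 0.355). SRRM1, an SR-like coactivator of splicing, had a 42-nt coding exon, printed above, that rose from 0.464, 0.475, and 0.528 to 0.658, 0.717, and 0.687 (0.199 ± 0.0261, quasi-binomial adjusted p = 3.45e-07). In SRSF1 a 187-nt exon included in nearly all transcripts went from 0.987, 0.989, and 0.972 to 0.947, 0.958, and 0.949 (-0.0315 ± 0.00618, quasi-binomial adjusted p = 0.000296). The groups were apart in all 3 genes and the calls held without each library. CLK1, a kinase of SR proteins, had a 91-nt coding exon that fell from 0.845, 0.893, and 0.885 to 0.631, 0.614, and 0.739 (-0.213 ± 0.0419, quasi-binomial adjusted p = 0.00716), lost without MS023 a or b (up to 0.106). The called A3SS and the called MXE of SR proteins were both of SRSF5 and shared 1 stretch (chr14:70236228-70237257). In the A3SS event, mean Ψ rose from 0.174 in DMSO to 0.232 in MS023 (0.0575 ± 0.00444, quasi-binomial adjusted p = 8.83e-07). That call was lost against DMSO at 7 days (ΔΨ = 0.0211, adjusted p = 0.348). After 7 days of MS023 the ΔΨ was -0.0354.

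Among hnRNPs, both directions occurred. HNRNPA2B1 had a 136-nt exon (chr7:26230613-26230748), found in transcripts annotated for decay, with a Ψ of 0.362, 0.413, and 0.357 in DMSO and 0.489, 0.558, and 0.573 in MS023 (0.162 ± 0.0314, quasi-binomial adjusted p = 2.11e-11). HNRNPD, also called AUF1, fell at a 147-nt coding exon from 0.427, 0.427, and 0.395 to 0.326, 0.334, and 0.348 (-0.0805 ± 0.0125, quasi-binomial adjusted p = 5.34e-10). HNRNPC fell at a 26-nt exon from 0.828, 0.822, and 0.829 to 0.768 in all 3 MS023 libraries (-0.0581 ± 0.0021, quasi-binomial adjusted p = 7.15e-11). These groups stood apart, and each call held without each library. HNRNPH1 fell at a donor site 30 nt downstream of another, from 0.918, 0.928, and 0.932 to 0.827, 0.824, and 0.828 (-0.0997 ± 0.00417, quasi-binomial adjusted p = 8.72e-30).

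The 78-nt exon of PTBP1, a polypyrimidine-tract binder that represses many exons, was a case in which the control decided the direction. Its Ψ was 0.678, 0.719, and 0.669 in DMSO at 4 days and 0.633, 0.631, and 0.638 in MS023, a ΔΨ of -0.0546 ± 0.0154 (quasi-binomial adjusted p = 0.00314). The call was lost without DMSO library b (0.234). Against DMSO at 7 days, the same MS023 libraries gave a ΔΨ of 0.119 (adjusted p = 4.8e-08), so no direction is read for this exon.

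Of the genes for RGG-rich proteins, 14 had called events, and those of PRRC2B, RBM3, G3BP2, ATXN2, and ATXN2L had the largest changes. PRRC2B had a 2082-nt coding exon (chr9:134349841-134351922) with a Ψ of 0.831, 0.809, and 0.828 in DMSO and 0.522, 0.502, and 0.501 in MS023 (-0.314 ± 0.0096, quasi-binomial adjusted p = 4.9e-28). RBM3, a cold-inducible RNA-binding protein, fell at a 269-nt non-coding exon from 0.8, 0.775, and 0.844 to 0.524, 0.48, and 0.601 (-0.271 ± 0.0408, quasi-binomial adjusted p = 0.000122). ATXN2 and LSM14A, both proteins of cytoplasmic RNA granules, rose. The 169-nt coding exon of ATXN2 went from 0.669, 0.637, and 0.671 to 0.836, 0.792, and 0.848 (0.166 ± 0.0203, quasi-binomial adjusted p = 0.00578), lost without MS023 a or c (up to 0.096) and against DMSO at 7 days (ΔΨ = 0.122, adjusted p = 0.105). G3BP2, a stress granule protein, fell at a 121-nt exon from 0.422, 0.416, and 0.43 to 0.256, 0.2, and 0.309 (-0.168 ± 0.0316, quasi-binomial adjusted p = 0.00767), lost without MS023 b (0.184). ATXN2L, a relative of ATXN2, moved to a donor site 54 nt upstream, from 0.754, 0.737, and 0.794 to 0.637, 0.608, and 0.556 (-0.161 ± 0.0293, quasi-binomial adjusted p = 0.0266), a call lost on leaving out any library (up to 0.186). The 57-nt exon of LSM14A went from 0.436, 0.467, and 0.381 to 0.51, 0.528, and 0.542 (0.0988 ± 0.0269, quasi-binomial adjusted p = 2.02e-05). None of these 6 events showed overlap between the groups.

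Of the PRMT genes and cofactors, 2 had called exons. A 102-nt coding exon of PRMT1, the main target of type I inhibitors, went from 0.981, 0.991, and 0.99 to 0.972, 0.97, and 0.965 (-0.0187 ± 0.00381, quasi-binomial adjusted p = 0.000238). The other 4 called events of this list, all higher, were of PRMT7, which monomethylates arginine. Its 84-nt exon with the largest change had a Ψ of 0.52, 0.399, and 0.61 in DMSO and 0.708, 0.862, and 0.724 in MS023 (0.255 ± 0.0783, quasi-binomial adjusted p = 0.0117), on 91 to 124 reads and lost without DMSO b or MS023 b or c (up to 0.234). Of the core spliceosome, PRPF6 of the U5 particle had a 219-nt exon that went from 0.993, 1.0, and 1.0 to 0.884, 0.877, and 0.922 (-0.103 ± 0.0141, quasi-binomial adjusted p = 2.43e-15), apart from DMSO in every library.

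**Figure D4:**
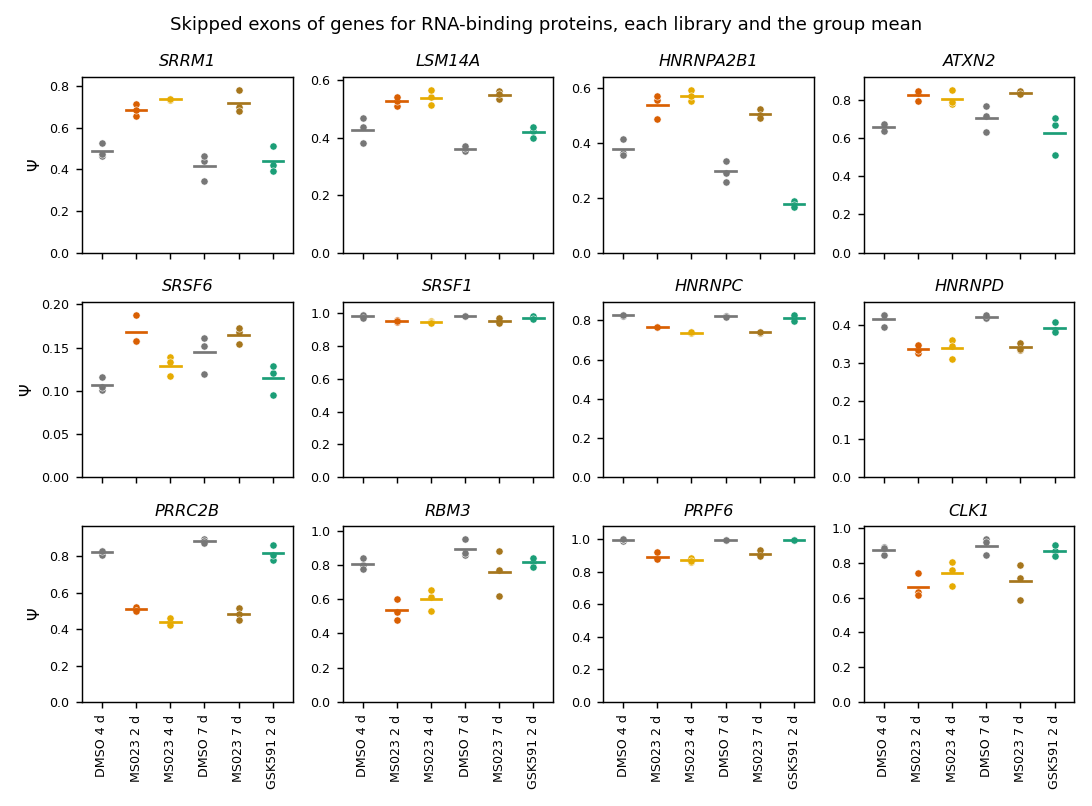
Ψ (vertical axis, from 0, with its own range in each panel) of 1 skipped exon in each of 12 genes for RNA-binding or splicing proteins, in DMSO at 4 and 7 days, MS023 at 2, 4, and 7 days, and GSK591 at 2 days; dots are libraries and lines are group means. SRRM1 and HNRNPA2B1 lie higher in all 3 MS023 groups than in both DMSO groups, and PRRC2B and PRPF6 lie lower.

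Genes whose exons are known to differ between epithelial and mesenchymal cells held 31 called events of 644 tested (4.81%), 11 higher and 20 lower, in 13 genes, against 1.48% of all tested events (517 higher and 1111 lower). The list was limited to genes with known alternative exons and chosen with earlier results of these data known. Of all tested skipped exons, 77.2% had a Ψ over 0.9 in DMSO, so the 2 shares are not those of like exons and carry no test. CTNND1 encodes p120 catenin, which stabilises cadherins at cell junctions. A 119-nt exon outside its coding sequence (chr11:57556509-57556627) had a Ψ of 0.674, 0.693, and 0.617 in DMSO and 0.402, 0.372, and 0.382 in MS023 (-0.276 ± 0.0245, quasi-binomial adjusted p = 1.72e-20). EXOC7, a subunit of the exocyst that tethers secretory vesicles, fell at the 93-nt exon from 0.384, 0.409, and 0.369 to 0.159, 0.15, and 0.159 (-0.231 ± 0.012, quasi-binomial adjusted p = 1.06e-15). Both fell well beyond the spread and in every library, and their calls held without each library. PALM, paralemmin of the plasma membrane, fell at a 132-nt exon from 0.827, 0.875, and 0.784 to 0.625, 0.659, and 0.573 (-0.209 ± 0.0365, quasi-binomial adjusted p = 0.00046), also without overlap.

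In the same list, exons of DNM2, RPS24, APLP2, MAP3K7, and SPAG9 were among those that rose. DNM2, dynamin 2, which cuts endocytic vesicles from the membrane, had its 12-nt exon at a Ψ of 0.172, 0.19, and 0.177 in DMSO and 0.258, 0.276, and 0.353 in MS023 (0.116 ± 0.0295, quasi-binomial adjusted p = 0.000881), lost without MS023 c (0.131). RPS24, a protein of the small ribosomal subunit, rose at a 22-nt exon from 0.172, 0.184, and 0.199 to 0.289, 0.305, and 0.316 (0.118 ± 0.011, quasi-binomial adjusted p = 3.07e-43). APLP2, a relative of the amyloid precursor, rose at a 36-nt exon from 0.167, 0.115, and 0.148 to 0.224, 0.218, and 0.223 (0.0787 ± 0.0154, quasi-binomial adjusted p = 6.82e-06). The groups were apart in all 3 genes. MAP3K7, the kinase TAK1, rose at its 81-nt exon from 0.119, 0.202, and 0.149 to 0.254, 0.318, and 0.351 (0.151 ± 0.0373, quasi-binomial adjusted p = 0.00212), lost without MS023 c (0.121) and against DMSO at 7 days (ΔΨ = 0.0799, adjusted p = 0.283). SPAG9, a scaffold of JNK signalling, rose at a 39-nt exon from 0.461, 0.518, and 0.554 to 0.637, 0.612, and 0.592 (0.103 ± 0.0302, quasi-binomial adjusted p = 0.0217), a call that held only without DMSO b or c (otherwise up to 0.323).

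Cytoskeleton and vesicle coat genes with alternative exons had 39 of 1103 events called (3.54%), 31 lower and 8 higher, against the same 1.48%. This list too was limited to genes with alternative exons, so its share is not compared with that of like exons. FLNA, filamin A, a crosslinker of actin, fell at the 24-nt exon printed above from 0.676, 0.683, and 0.683 to 0.508, 0.535, and 0.519 (-0.16 ± 0.00815, quasi-binomial adjusted p = 2.4e-66), on 3951 to 6962 reads per library. EPB41L1, a band 4.1 protein under the membrane, fell at a 411-nt exon from 0.618, 0.599, and 0.611 to 0.378, 0.353, and 0.361 (-0.245 ± 0.00909, quasi-binomial adjusted p = 9.58e-21). PICALM, which assembles clathrin, fell at a 150-nt exon from 0.396, 0.377, and 0.389 to 0.238, 0.15, and 0.186 (-0.196 ± 0.0261, quasi-binomial adjusted p = 1.91e-16). All 3 calls held without each library. Against DMSO at 7 days, however, the ΔΨ of the EPB41L1 exon was -0.00579 (adjusted p = 0.916). MFF, a receptor of mitochondrial fission, fell at a 112-nt exon from 0.795, 0.767, and 0.829 to 0.585, 0.608, and 0.521 (-0.226 ± 0.0317, quasi-binomial adjusted p = 9.94e-22), and no group of these 4 genes overlapped the other.

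Cell cycle, repair, and death genes were near or under the level of all events. Cell cycle and mitosis genes had 18 of 1014 events called (1.78%, 7 higher and 11 lower). In NUMA1, which organises the spindle poles, a 42-nt coding exon was at 1.0 in every DMSO library and at 0.366, 0.204, and 0.633 in MS023 (-0.599 ± 0.125, quasi-binomial adjusted p = 6.6e-09), on as few as 25 reads. STAG2, a subunit of cohesin, rose at a 65-nt exon from 0.149, 0.136, and 0.0988 to 0.255, 0.252, and 0.263 (0.129 ± 0.0155, quasi-binomial adjusted p = 0.0195), a call lost on leaving out any library other than DMSO a (up to 0.148). DNA repair genes had 10 of 1469 events called (0.681%, 4 and 6). Among them, the 1607-nt non-coding exon of ERCC8, a protein of transcription-coupled repair, rose from 0.068, 0.0511, and 0.101 to 0.336, 0.287, and 0.33 (0.244 ± 0.0214, quasi-binomial adjusted p = 1.9e-23), with no overlap. ERCC1, part of a repair nuclease, fell at a 72-nt coding exon from 0.75, 0.767, and 0.712 to 0.603, 0.62, and 0.604 (-0.134 ± 0.0172, quasi-binomial adjusted p = 6.26e-08).

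Apoptosis and p53 regulator genes had 3 of 363 events called (0.826%), all lower. One was an 832-nt exon of DAXX, a histone chaperone and death-domain partner, from 0.946, 0.935, and 0.943 to 0.837, 0.819, and 0.766 (-0.134 ± 0.0215, quasi-binomial adjusted p = 0.000217). Against DMSO at 7 days its ΔΨ was 0.0178 (adjusted p = 0.848). Factors of nonsense-mediated decay had 0 of 215 events called by the quasi-binomial test. Of these, 15 had an unadjusted p under 0.05, 1 was called without the trend in the dispersions, and limma called 0.

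The comparison with GSK591 asked whether exons differ between inhibition of type I PRMTs and of PRMT5 at the same day. Set directly against GSK591 at 2 days, MS023 gave 5141 called SE of 56665 tested (9.07%), 3420 higher (6.04%) and 1721 lower (3.04%) in MS023. The exons called higher with MS023 had a median ΔΨ of 0.0941 with MS023 and -0.00448 with GSK591, each against the shared DMSO libraries. For the exons called lower, the medians were -0.0884 and -0.0139. These exons were called by their MS023 change, while GSK591 played no part in the choice. The 2 medians are therefore not a fair comparison of the inhibitors. In RPS24 the ΔΨ was 0.118 with MS023 and -0.11 with GSK591, and the direct contrast had a quasi-binomial adjusted p of 6.41e-154. In EXOC7 these were -0.231 and 0.225 (2.2e-27), and in HNRNPA2B1 0.162 and -0.201 (4.68e-67). In these 3 exons the ΔΨ of the 2 inhibitors had opposite signs, and that of GSK591 against DMSO was not tested here. The 3 are examples and do not stand for all called exons. The PRRC2B exon fell by 0.314 with MS023, whereas its ΔΨ was -0.00431 with GSK591 (direct contrast, adjusted p = 6.56e-25). For ERCC1, with ΔΨ of -0.134 and -0.0872, the direct contrast did not pass the threshold (0.353), which does not show that both act alike.

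From 2 to 4 days of MS023, few exons changed. The direct contrast called 38 of 59334 SE (0.064%), 14 higher (0.0236%) and 24 lower (0.0404%) at 4 days, against 3708 with an unadjusted p under 0.05. Of the exons that passed, 5 were picked after their values were seen. Mean Ψ went from 0.292 ± 0.0146 (SD) at 2 days to 0.207 ± 0.0123 at 4 days for PLEC, from 0.364 ± 0.0123 to 0.241 ± 0.00877 for EPB41L1, and from 0.529 ± 0.0532 to 0.32 ± 0.039 for RAB11FIP3, an effector of RAB11 in endosome recycling. RPS25, a protein of the small ribosomal subunit, went from 0.702 ± 0.0439 to 0.518 ± 0.0129 for a 129-nt exon. A 1239-nt exon of the kinase WNK1 rose from 0.161 ± 0.00524 to 0.248 ± 0.0403, with DMSO at 0.00758 ± 0.00109. All 5 moved further from the mean of DMSO at 4 days. Of all 38, 25 did so and 13 moved back towards it or past it. One that moved back was the 1007-nt exon of NPIPA1, from 0.221 at 2 days to 0.742 at 4 days, beside 0.759 in DMSO (0.00537). Against DMSO at 7 days, the 2-day ΔΨ was -0.00797 for RPS25 (adjusted p = 0.954) and -0.0456 for RAB11FIP3 (0.627), so that both calls at 2 days were lost. The 2-day call of the EPB41L1 exon was lost with that control as well, as given above. The direct contrast had quasi-binomial adjusted p values of 2.53e-13, 1.58e-06, 0.0013, 3.27e-05, and 0.00394 for the 5 exons in this order.

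At 7 days, MS023 and its DMSO shared no library with the 2-day comparison, and most exons called at 2 days had the same direction there. Of the SE called higher, 297 of 308 (96.4%) were also higher at 7 days, and of those called lower, 809 of 851 (95.1%) were lower, compared with 58.8% of all tested SE. MS023 at 7 days called 1718 of 71885 SE (2.39%), 855 higher (1.19%) and 863 lower (1.2%). Of the exons called at 2 days and tested at 7 days, 182 of 307 higher (59.3%) and 407 of 845 lower (48.2%) were called in the same direction, against 2.76% of all exons tested in both, and 1 was called in the opposite one. The other types gave like shares, with the direction shared by 25 of 26 A3SS called higher, 67 of 70 called lower, 27 of 31 and 74 of 76 A5SS, and 87 of 95 and 61 of 64 MXE, compared with 57.5%, 58.7%, and 56.3% of all tested A3SS, A5SS, and MXE. The median ΔΨ was 0.0789 for the SE called higher and -0.0501 for those called lower, beside 0.0941 and -0.0884 at 2 days, the values by which these exons were called.

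**Figure D5:**
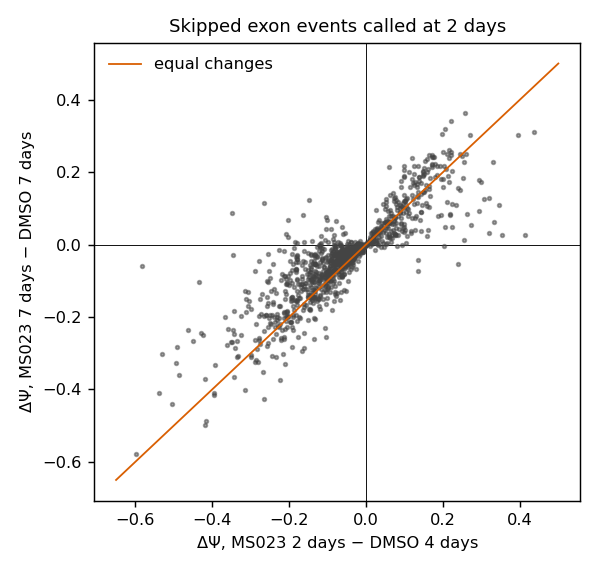
ΔΨ of the skipped exon events called at 2 days (horizontal axis, MS023 at 2 days minus DMSO at 4 days) against their ΔΨ at 7 days (vertical axis, MS023 minus DMSO, both at 7 days); each dot is 1 event and the line marks equal changes. Most dots lie in the quadrants of equal direction, 297 of 308 for rises and 809 of 851 for falls.

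For named exons, the ΔΨ at 7 days was at times as large as at 2 days and at times far smaller. PRRC2B had a ΔΨ of -0.402 (quasi-binomial adjusted p = 2.83e-38), PLEC -0.499 (1.86e-117), FLNA -0.245 (1.05e-38), CTNND1 -0.275 (8.9e-30), and SRRM1 0.306 (6.17e-12). It was 0.0258 for IQCD (0.841), 0.109 for FIGNL1 (0.434), -0.199 for SNAP25 (0.184), and 0.0205 for SRSF6 (0.487), all smaller than at 2 days. For DNM2 it was 0.0386 (0.4) and for APLP2 0.0273 (0.371), short of the threshold. The change itself differed between 7 and 2 days, by an interaction term, for 28 of 55436 SE (0.0505%), 23 of them higher (0.0415%) and 5 lower (0.00902%) at 7 days.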

How the data were processed

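Poly(A)-RNA of A549 cells was sequenced from 3 libraries per group. The authors trimmed reads with Trim Galore (0.6.5), mapped them to hg19 with STAR (2.4.2a), and ran rMATS on each inhibitor group against DMSO, per the labels and the methods. They deposited, for each event and library, whole-number read counts of the inclusion and skipping forms, not normalized, with effective lengths. Inclusion counts take in reads within the exon as well as across its junctions, so a long exon rests mainly on reads within it. The deposited Ψ, p-values, and FDR of the authors' own comparison were not used.

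Groups came from the labels and table headers, and the control of the 7-day tables was inferred from the labels. For each event, the counts of both forms over the libraries were fitted by quasi-binomial logistic regression in R (4.3.3), with dispersions moderated by squeezeVar of limma (3.58.1) and held at 1 or above, an F test, and Benjamini-Hochberg adjustment per event type. A trend of the dispersion on the reads of the rarer form, which the plan did not name, was added to the main fit. The reason was that the fit without it made more false calls on simulated data. Those data counted each fragment as 2 reads and so gave every event a like spread. They cannot show which fit suits the real libraries. With the trend 1179 SE were called at 2 days, and without it 2880. The SE of ΔΨ comes from the standard deviations of both groups.

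Named events are the called ones with the largest rise and fall, with at least 50 reads in every library and 1 per gene and type (7 and 7 for SE, 2 and 2 for MXE, 3 and 3 for A3SS and A5SS), and the called event with the largest change in each gene of 14 lists. The members and lists were chosen with earlier results of these data known. Coding status came from GENCODE annotation on GRCh37 and bases from the GRCh37 genome. Alternatives were each library left out, limma on log2 odds with 0.5 added to each count, other read minimums, thresholds, and adjustments, no effective lengths, and, chosen after seeing the data, no dispersion trend, at least 20 reads of each form, and DMSO at 7 days as control.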

Additional observations from a re-analysis of the deposited data

Results flagged for a closer look

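The ΔΨ of MS023 differed between 7 days, against DMSO at 7 days, and 2 days, against DMSO at 4 days, for 28 SE by the interaction term of the quasi-binomial model (0.0505% of those tested, beside 5874 with an unadjusted p under 0.05). The count was 14 without DMSO 4-day library b, 17 without a, 13, 16, and 59 without DMSO 7-day libraries a, b, and c, and 16 without MS023 7-day library a. Since the DMSO libraries of both times differ themselves, time under MS023 and time in culture cannot be told apart here. The 28 included exons of SNRNP70 and TPM2, and further exons of other genes named here, among them HNRNPA2B1, RPLP0, ALDOA, ANXA2, FN1, EPB41L1, and MFF.

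In SNRNP70, the RNA-binding subunit of the U1 particle, a 1474-nt non-coding exon (chr19:49605371-49606844) had a mean Ψ of 0.0442 ± 0.00214 (SD) in DMSO at 4 days, 0.0704 ± 0.00721 in MS023 at 2 days, 0.11 ± 0.00576 at 4 days, and 0.148 ± 0.00708 at 7 days, beside 0.0523 ± 0.0125 in DMSO at 7 days. The change at 7 days exceeded that at 2 days by 0.0693 (quasi-binomial adjusted p = 9.38e-18), and MS023 at 4 days differed from 2 days in the direct contrast (3.39e-25). An A5SS event with this same stretch as its long form moved the other way at 2 days, from 0.945 ± 0.0246 to 0.863 ± 0.0532 (quasi-binomial adjusted p = 0.038). That call was lost without DMSO a or b or MS023 b or c (up to 0.359).

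In TPM2, a tropomyosin that wraps actin filaments, a 76-nt coding exon (chr9:35685061-35685136) had a mean Ψ of 0.264 ± 0.023 in DMSO at 4 days and 0.363 ± 0.0177 in MS023 at 2 days, against 0.251 ± 0.0218 and 0.44 ± 0.026 at 7 days. The change was larger by 0.09 at 7 days (quasi-binomial adjusted p = 0.0363). For the 36-nt exon of HNRNPA2B1 the change was larger by 0.0486 at 7 days (0.0316), for the 78-nt exon of RPLP0 the ΔΨ at 7 days was above that at 2 days by 0.0651 (2.64e-19), a smaller fall, and for the 52-nt exon of ALDOA the difference was -0.0777 (1e-08), a larger fall. These exons were singled out for this difference after their values were seen.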

How the results depend on the processing

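Counts of called events moved with the test, the dispersion, and the control. With limma on log2 odds, 1 SE, 28 MXE, 0 A3SS (493 at an unadjusted p under 0.05), 4 A5SS, and 0 RI (460) were called at 2 days, 124 SE against GSK591, and 0 SE for 4 against 2 days (2791), the interaction (3337), MS023 at 7 days, and DMSO at 7 against 4 days. Without the dispersion trend, the counts were 2880 SE, 154 A3SS, 107 for 4 against 2 days, 89 for the interaction, 3560 at 7 days, and 1775 for DMSO. With at least 20 reads of each form they were 1873 SE, 57 for the interaction, and 1373 for DMSO. With a ΔΨ of at least 0.05 required, 71 A5SS, 119 RI, and 19 SE for 4 against 2 days remained in the count. With DMSO at 7 days as the control, they were 2913 SE, 3196 MXE, 249 A3SS, 291 A5SS, and 670 RI. The cause of these shifts was not tested.

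Leaving out 1 library gave 612 to 876 SE, 112 to 223 MXE, 51 to 77 A3SS, 62 to 81 A5SS, and 85 to 173 RI at 2 days, 3295 to 4272 SE against GSK591 (lowest without MS023 a), 29 to 38 for 4 against 2 days, 13 to 59 for the interaction, 931 to 1393 at 7 days (lowest without MS023 b), and 404 to 858 for DMSO (lowest without DMSO 7-day b). MXE fell to 137, 123, and 112 without MS023 a, b, and c, A3SS to 58 and 51 without MS023 a and b, and A5SS to 72, 62, 68, and 72 without DMSO b and MS023 a, b, and c. RI fell to 131, 132, and 85 without MS023 a, b, and c. The median ΔΨ of tested SE was -0.00126 to 0.0 without 1 library, at 0.0 without MS023 a, -0.000257 without b, and -0.000291 without c, and -0.000612 without effective lengths.

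Of 153 named or listed events, 70 were called without each library in turn, 146 without the trend, and 2 by limma. With DMSO at 7 days, 107 of 145 held and 30 lost their call with the same sign. The other 8 turned: DAXX to 0.0178, HNRNPR to 0.0462, BCL2L12 to 0.114, PTBP1 to 0.119, CCND3 to 0.019, the A5SS of HNRNPH3 to -0.0219 and of SMC4 to 0.00921, and the MXE of SMC4 to -0.00367. The planned negative binomial test was not run. No paired analysis was possible because the columns carry no replicate numbers. Low depth limits events near 10 reads per library.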

Other observations

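A ribosomal stalk gene and mitochondrial and glycolytic genes, which none of the lists hold, also had exons whose change was called, and were picked after their values were seen. Overlapping SE events of RPLP0, a protein of the ribosomal stalk, fell with MS023. Its 78-nt exon had a mean Ψ of 0.899 ± 0.00641 (SD) in DMSO and 0.614 ± 0.00706 in MS023 at 2 days, beside 0.803 ± 0.0215 and 0.583 ± 0.0238 at 7 days. A 183-nt exon of ATP5B, the catalytic subunit of mitochondrial ATP synthase, went from 0.989 ± 0.00119 to 0.93 ± 0.00754 (quasi-binomial adjusted p = 2.78e-116). A 52-nt exon of ALDOA, the aldolase of glycolysis, went from 0.316 ± 0.0146 to 0.265 ± 0.00846 at 2 days (1e-11) and from 0.337 ± 0.00752 to 0.208 ± 0.0142 at 7 days.

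In WNK1, an exon rose from near 0. The 1239-nt exon of WNK1 was at 0.00758 ± 0.00109 in DMSO at 4 days and 0.00769 ± 0.00761 at 7 days, but at 0.161 ± 0.00524, 0.248 ± 0.0403, and 0.237 ± 0.0375 after 2, 4, and 7 days of MS023. A 36-nt coding exon of HNRNPA2B1 was at 0.232 ± 0.00872 in DMSO and 0.37 ± 0.00718 in MS023 at 2 days (quasi-binomial adjusted p = 1.43e-119), and at 0.228 ± 0.012 and 0.414 ± 0.0139 at 7 days.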
